A study of Schizosaccharomyces pombe with 3 samples.

Results

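The genes described here encode enzymes of glycolysis and alcoholic fermentation in the fission yeast Schizosaccharomyces pombe: pfk1, fba1, tpi1, tdh1, gpd3, pgk1, eno101, pyk1, pdc101 and adh1. Features were taken by name from the array, either as the upstream intergenic feature of a gene, which carries the prefix IGR-, or as its coding feature. These 10 genes had 19 assigned features, 10 upstream and 9 coding, of 10213 named features in all. The genes were chosen with their ratios on these arrays known, so their ratios and test results are given as a description only.

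The study mapped where Ssn6 lies on chromatin. Cells carried Ssn6 fused to green fluorescent protein, grew in rich YES medium to mid log phase, and were crosslinked at harvest. An antibody against the fluorescent tag pulled down chromatin from separate experiments, and this DNA was hybridised together with input DNA to 2-colour arrays of intergenic and coding features. The series has 3 arrays of this 1 group, called replicates 1, 2 and 3 in the order of deposition, and an untagged strain or mock precipitation was not analysed here.

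Ssn6 is a subunit of the Tup11/Tup12-Ssn6 corepressor, a complex that does not read DNA sequence itself and is brought to promoters by sequence-specific factors. Glycolysis splits glucose into pyruvate and yields ATP. In fission yeast growing on glucose, pyruvate decarboxylase and alcohol dehydrogenase turn much of this pyruvate into ethanol, and the genes of these enzymes are among the strongly transcribed genes of such cells.

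Each value below is the log2 ratio of the channel taken as immunoprecipitate over the channel taken as input, centred on the median of its array. The direction of this ratio is not settled. With channel B as the numerator throughout, the correlation across the 3960 features was 0.72 between replicates 1 and 3, but -0.48 between replicates 1 and 2 and -0.54 between replicates 2 and 3. The labels' protocols say that dyes were not swapped. The values the authors deposited followed channel A on replicate 2 and channel B on the other arrays. These channels were taken as likely immunoprecipitate, and all signs below would turn together if the opposite held. Both channels of a feature spot gave signal at 49.0%, 95.5% and 37.7% of feature spots on replicates 1, 2 and 3. Features with a ratio on all 3 arrays were tested in 1 limma fit with Benjamini-Hochberg adjustment, where an adjusted p under 0.05 is a call. Over all 3960 features 8.26% were called enriched and 5.61% depleted.

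The array files give no sequence or position of a spotted feature, so the sequence next to each gene was read from the RefSeq assembly ASM294v3. The windows below are the 250 bases before the annotated start of 5 genes, read 5′ to 3′ on the strand of the gene, and they show the promoter with the highest 3-array ratio (pdc101), the one with the highest single ratio (pgk1), and 3 that carry the motifs searched. Capitals mark a match to TGACGT in fba1 and pgk1, to CAGTCAC in tpi1, and to TATAAA in pgk1 and adh1, on either strand. The pdc101 window (chrI:103598-103847, minus strand) holds no exact match to these motifs. The pgk1 window is chrII:4159462-4159711 on the minus strand, the fba1 window chrII:1688071-1688320 on the plus strand, the tpi1 window chrIII:939663-939912 on the plus strand and the adh1 window chrIII:1591042-1591291 on the plus strand.
pdc101: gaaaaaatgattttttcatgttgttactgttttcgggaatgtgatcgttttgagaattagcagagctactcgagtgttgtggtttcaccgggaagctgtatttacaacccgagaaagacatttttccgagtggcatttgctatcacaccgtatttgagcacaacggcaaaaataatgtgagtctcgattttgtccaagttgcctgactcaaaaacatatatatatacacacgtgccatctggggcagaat
pgk1: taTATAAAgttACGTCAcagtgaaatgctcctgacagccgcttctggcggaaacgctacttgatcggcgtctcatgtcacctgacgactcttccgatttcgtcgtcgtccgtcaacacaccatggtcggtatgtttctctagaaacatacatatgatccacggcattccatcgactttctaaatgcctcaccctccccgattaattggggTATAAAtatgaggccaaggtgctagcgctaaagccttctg
fba1: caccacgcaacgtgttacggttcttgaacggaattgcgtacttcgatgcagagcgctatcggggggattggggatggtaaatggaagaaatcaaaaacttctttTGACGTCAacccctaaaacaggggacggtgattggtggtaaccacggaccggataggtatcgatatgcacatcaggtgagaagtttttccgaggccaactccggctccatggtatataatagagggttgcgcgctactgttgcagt
tpi1: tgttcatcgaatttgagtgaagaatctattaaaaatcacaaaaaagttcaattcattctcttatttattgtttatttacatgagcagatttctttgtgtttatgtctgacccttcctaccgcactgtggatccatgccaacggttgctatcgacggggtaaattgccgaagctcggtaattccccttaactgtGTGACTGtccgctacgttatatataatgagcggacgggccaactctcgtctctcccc
adh1: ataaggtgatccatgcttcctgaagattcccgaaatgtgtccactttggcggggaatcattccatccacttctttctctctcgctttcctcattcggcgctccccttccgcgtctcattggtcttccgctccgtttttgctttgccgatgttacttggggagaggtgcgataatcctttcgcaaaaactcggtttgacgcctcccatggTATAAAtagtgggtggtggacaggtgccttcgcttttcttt

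TGACGT is the core of the cAMP response element bound by Atf1-type bZIP factors. It occurred in 3 of the 10 windows, pfk1, fba1 and pgk1, against 5.52% of the 5112 windows of all protein-coding genes. In fba1 the match is the palindrome TGACGTCA, which counts on both strands. CAGTCAC, the core of the HomolD box found in fission yeast ribosomal protein promoters, occurred in the tpi1 window alone of the 10 and in 4.52% of all windows. CCCCTC, the stress-starvation response element bound by the zinc finger factor Rst2, occurred in 0 of the 10 windows and in 1.7% of all.

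TATAAA occurred in 5 of the 10 windows, tdh1, gpd3, pgk1, pyk1 and adh1, and in 44.4% of all windows. Only these exact letters were searched, so stretches such as tatata in the pdc101, fba1, tpi1 and eno101 windows were not counted. In the 5 genes with TATAAA a match began between 33 and 41 bases before the gene start, at 38 bases for tdh1, 33 for gpd3, 40 for pgk1 and 41 for adh1. The pyk1 match, at 33 bases, lies on the opposite strand. A match within the last 50 bases, a width chosen after these positions were seen, occurred in 9.68% of all windows. The letters were also rich in G and C: AT content was between 46.8% in eno101 and 60.0% in pdc101, against a median of 68.0% over all windows, and 6.57% of all windows had 60.0% or less.

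The upstream regions of these genes were long. The distance to the next protein-coding gene upstream was 2624.5 bp at the median of the 10 genes against 461 bp at the median of all genes, and 9 of the 10 regions had 1000 bp or more, against 24.9% of all genes. The longest was the 3796 bp before gpd3. The exception was pdc101, with 343 bp up to the start of SPAC1F8.08, a divergent gene for an uncharacterised protein. In the other 9 regions the annotation holds between 1 and 4 noncoding RNA genes, and in 4 cases (pfk1, fba1, eno101 and pdc101) the upstream neighbour is divergent.

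Old names on the array had to be settled for eno101 and tdh1. Features at the same place in print blocks 8 apart mostly follow the gene order: the named neighbours lay within 20 kb at 97.6% of 6561 coding pairs and 93.2% of 6564 intergenic pairs. The features eno1 and IGR-eno1 stood between features that lie 1.8 to 6.5 kb from eno101 and over 2138 kb from eno102, the other enolase gene, and were taken as eno101. IGR-gpd1 stood between features 2.3 and 5.2 kb from tdh1 and was taken as its upstream feature. A spot named gpd1-x2Missing stood at the place of the tdh1 coding feature and gave no ratio, so tdh1 has no coding value. The coding feature gpd1-x2 could not be assigned to tdh1 or to gpd1, a glycerol-3-phosphate dehydrogenase gene, and its ratio was 0.84 ± 0.29 (SD, n = 3).

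All 10 upstream features had positive ratios on every array that measured them, between 1.53 and 2.54 in the mean of the 9 features with 3 arrays. Their median of 2.07 is a 4.20-fold ratio (that of adh1), against a median log2 ratio of 0.36 over all 1327 tested intergenic features. All 9 of the 9 tested were called, where 19.7% of the tested intergenic features were called enriched and 0.904% depleted. This count restates the choice of the genes and nothing is read from it. With channel B as the numerator throughout, 0 of the 9 were called, and their means lay between -0.06 and 0.50.

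**Figure D1:**
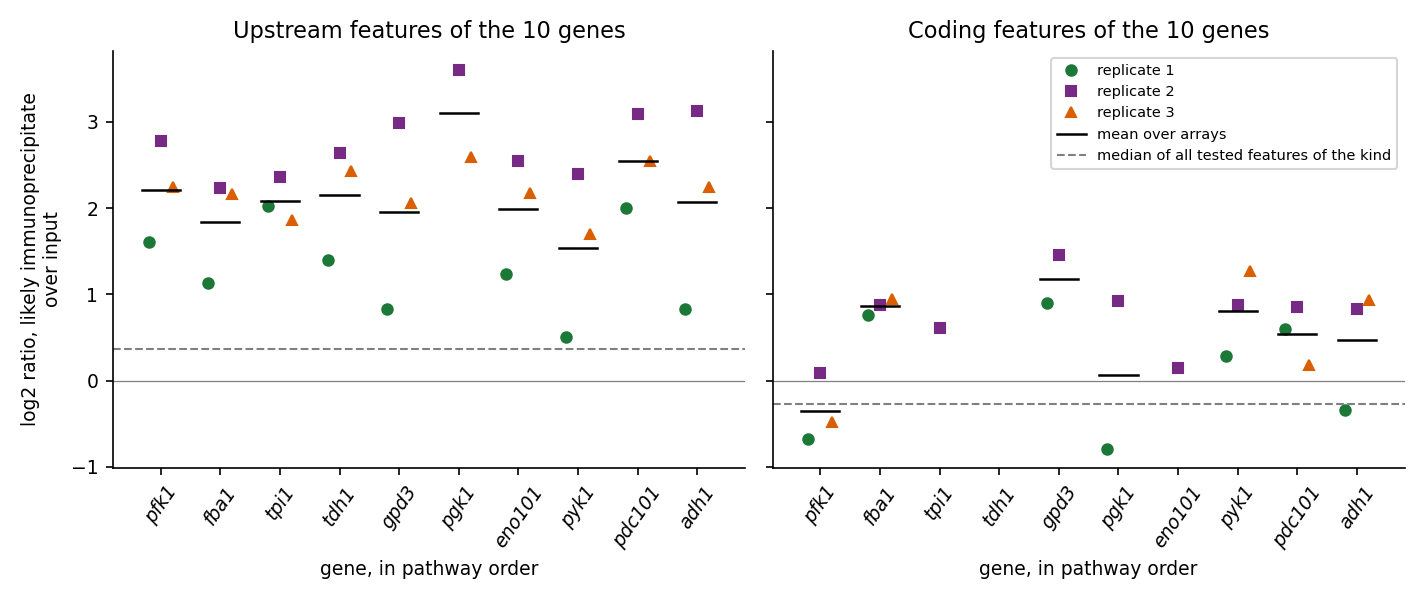
Log2 ratio of likely immunoprecipitate over input (y axis) for the upstream features (left) and coding features (right) of the 10 genes in pathway order (x axis). Each symbol is 1 array, black bars are means over the arrays with a value, and the dashed line is the median of all tested features of that kind. The upstream values lie above the dashed line at 0.36, a median of 3-array means, on every array, and tdh1 has no coding value. On replicate 1 the pyk1 upstream value lay above only 45.1% of intergenic features with a value.

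The upper steps of the pathway described here are those of pfk1 and fba1. Upstream of pfk1, which encodes the phosphofructokinase that commits sugar to glycolysis, the log2 ratio was 1.61, 2.78 and 2.25 on replicates 1, 2 and 3, with a mean of 2.21 ± 0.58 (SD, n = 3 arrays, as for all such values). Its coding feature gave -0.67, 0.08 and -0.48. The upstream value was the higher on every array, and the coding mean of -0.36 ± 0.39 lay near the median of all tested coding features, -0.28. Upstream of fba1, the aldolase gene that splits fructose bisphosphate, the ratio was 1.13, 2.23 and 2.16, with a mean of 1.84 ± 0.62, and it was not called without replicate 3. The fba1 coding feature had the highest coding mean among the 5 with 3 arrays, 0.87 ± 0.09, from 0.76, 0.88 and 0.95, values that nearly coincide.

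Tpi1 interconverts the triose phosphates. Its upstream feature had the closest agreement between arrays among the 9, with 2.02, 2.36 and 1.86 and a mean of 2.08 ± 0.26. On replicate 3 this value rests on 1 spot, and the likely immunoprecipitate intensity there, 3509, lay below the limit of 4452 set by the negative controls. The tpi1 coding feature had a ratio on replicate 2 alone, 0.61.

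Tdh1 and Gpd3 are the glyceraldehyde-3-phosphate dehydrogenases, which make the first high-energy intermediate. The feature taken as upstream of tdh1 gave 1.40, 2.64 and 2.43, a mean of 2.16 ± 0.67. Upstream of gpd3 the ratios were 0.83, 2.98 and 2.06, a mean of 1.96 ± 1.08. The paralogs' means differ by less than either SD. The gpd3 coding feature gave 0.90 on replicate 1 and 1.45 on replicate 2 and had no value on replicate 3, so on replicate 1 it was 0.07 above the upstream value of the same gene, a difference of -0.07 as upstream minus coding.

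Pgk1, phosphoglycerate kinase, makes ATP in the next step. Its upstream feature had the highest ratio of the 10 genes on both arrays that measured it, 3.61 on replicate 2 and 2.59 on replicate 3, and both of its spots were rejected in both channels on replicate 1. On these arrays it lay above 99.9% and 97.2% of the intergenic features with a value. The pgk1 coding feature gave -0.80 and 0.92 on replicates 1 and 2, values of opposite sign. Enolase, encoded by eno101, followed with 1.23, 2.54 and 2.18 upstream, a mean of 1.98 ± 0.68, and a coding value of 0.14 on replicate 2 only. The upstream spots of eno101 held saturated pixels on every array, with an unsaturated share of 0.971, 0.72 and 0.983, and the files do not say which channel these belong to. Saturated pixels also occurred upstream of pfk1 on replicates 1 and 2 (0.964 and 0.988), of gpd3 and pdc101 on replicate 3 (0.985 and 0.932), and of adh1 on replicates 2 and 3 (0.802 and 0.946).

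Pyk1, pyruvate kinase, closes glycolysis. Its upstream feature had the lowest mean of the 9, 1.53 ± 0.95, from 0.51, 2.39 and 1.70, and on replicate 1 it lay above only 45.1% of the intergenic features. It was not called without replicate 2 or without replicate 3. The call was also lost with intergenic and coding features centred separately (limma adjusted p = 0.064) and with median intensity less background (0.0886). The pyk1 coding feature gave 0.29, 0.87 and 1.27, a mean of 0.81 ± 0.50, so the upstream and coding values overlap between arrays.

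Of the fermentation genes, pdc101 had the highest upstream mean among the 9 features with 3 arrays. The value of pgk1, on 2 arrays, was higher. Upstream of pdc101, a putative pyruvate decarboxylase gene, the ratio was 2.00, 3.09 and 2.54, a mean of 2.54 ± 0.55 or 5.83-fold, which ranked 27 among the 1327 tested intergenic features. The coding feature of pdc101 gave 0.59, 0.85 and 0.18, all below the lowest upstream value. Upstream of adh1, the alcohol dehydrogenase gene that makes ethanol, the ratio was 0.83, 3.13 and 2.24, a mean of 2.07 ± 1.16. This was the widest spread of the 9, and the coding feature of adh1, with -0.35, 0.83 and 0.94, lay below the upstream value on each array.

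The order of the 9 upstream means was pdc101, pfk1, tdh1, tpi1, adh1, eno101, gpd3, fba1 and pyk1, and no 2 neighbours in this order differed by more than their SD of 0.26 to 1.16. All features share the 3 arrays, so the SD holds what the arrays add to every feature. Within arrays, pdc101 was above pfk1 by 0.38, 0.32 and 0.30 and above pyk1, the lowest, by 1.49, 0.70 and 0.84. Of the 9 features, 8 were lowest on replicate 1, the exception being tpi1, and all 10 were highest on replicate 2. Among intergenic features with a value on the same array, the members lay above 45.1% to 94.6% on replicate 1, 97.6% to 99.9% on replicate 2 and 89.9% to 97.2% on replicate 3.

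**Figure D2:**
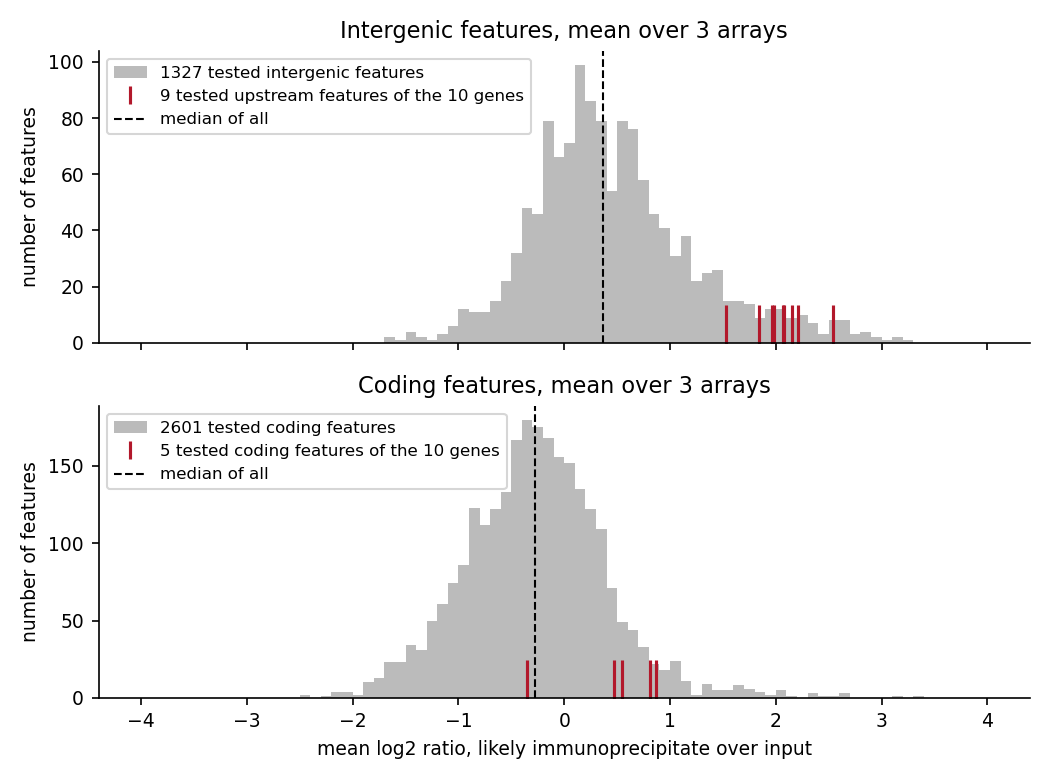
Number of tested features (y axis) by mean log2 ratio of likely immunoprecipitate over input on 3 arrays (x axis, bins of 0.1), for intergenic features (top) and coding features (bottom). Red marks are the tested features of the 10 genes and dashed lines the medians of all tested features. The 9 upstream marks lie from 1.53 to 2.54, and the 5 coding marks from -0.36 to 0.87.

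The rank rule of the labels' protocols was applied as well: a feature is listed when the median over arrays of its percentile rank among all features is 85 or more. All 10 upstream features were listed, with median percentiles of 95.1 to 99.4, where 17.0% of intergenic features were. Of the 9 coding features 2 were listed, gpd3 at 87.8 and pyk1 at 88.7, where 5.16% of coding features were. With channel B as the numerator throughout, 6 of the 19 features were listed.

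Signal strength was examined next. In mean pixel intensity, the likely immunoprecipitate channel of the upstream features had a median of 5683, 23920 and 9520 on replicates 1, 2 and 3, against 1832, 2073 and 3048 for all intergenic features with a ratio. The input channel differed less, with medians of 1036, 3015 and 1544 for the upstream features and 693.5, 2073 and 1432 for all. The input intensity was below the median of intergenic features at 1 of 9 upstream features on replicate 1, 1 of 10 on replicate 2 and 5 of 10 on replicate 3. Of the 9 tested upstream features, 8 lay above the negative-control limit in the likely immunoprecipitate channel on all 3 arrays, against 19.1% of tested intergenic features, and the exception was tpi1. That limit was 1959, 222.7 and 4452 on replicates 1, 2 and 3, and on replicate 2 it lies below the signal of every intergenic feature in the plot of intensities.

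**Figure D3:**
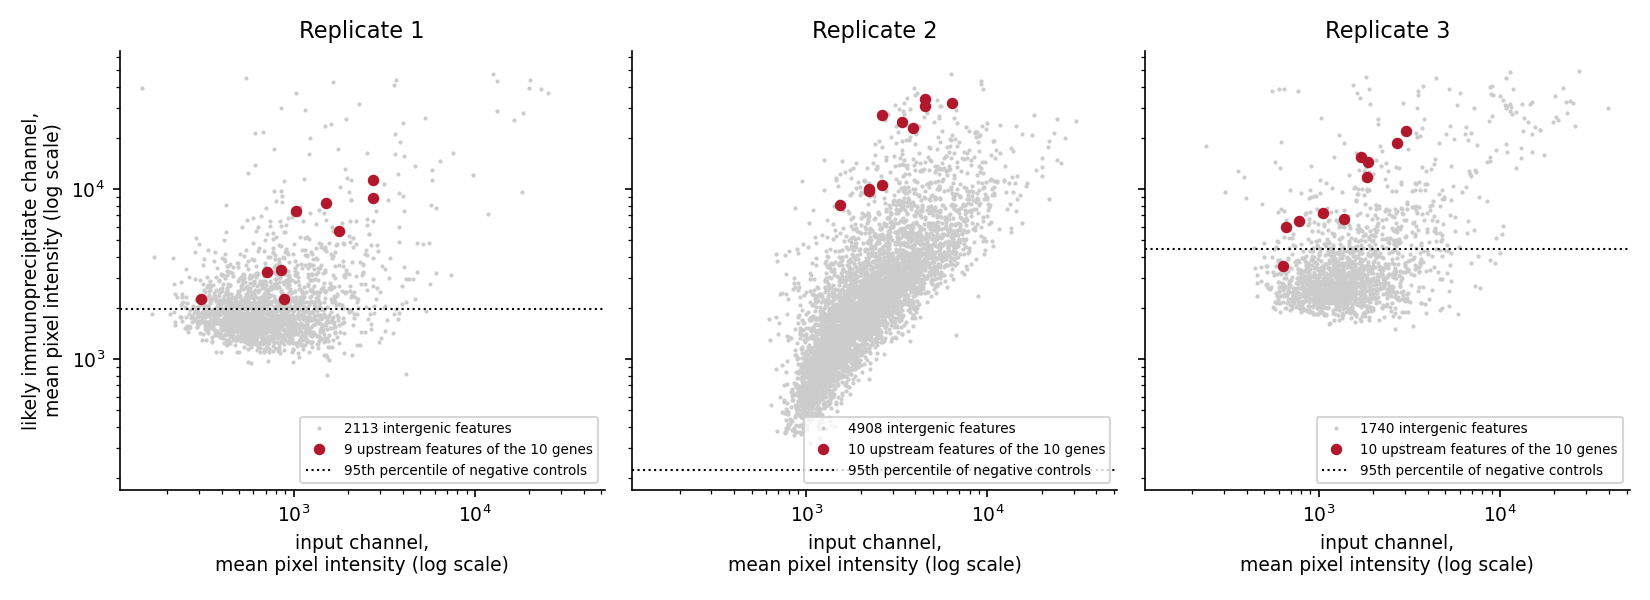
Mean pixel intensity of the likely immunoprecipitate channel (y axis, log scale) against the input channel (x axis, log scale) for intergenic features with a ratio on replicates 1, 2 and 3. Red points are the upstream features of the 10 genes, grey points all intergenic features, and the dotted line is the 95th percentile of the negative controls. The red points lie along the upper edge of the grey cloud on replicate 2, where the median is 23920, and inside it on replicate 1, where the median is 5683.

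The coding features of these genes were measured less completely than the upstream ones, since 5 of the 9 had a ratio on 3 arrays. Their median log2 ratio was 0.54, against -0.28 for all 2601 tested coding features. Of the 5, 0 passed the limma test and 2 had an unadjusted p under 0.05, where 2.42% of tested coding features were called enriched and 7.84% depleted. The fba1 feature was called with loess normalisation and with coding features centred on their own median. On replicate 3, the likely immunoprecipitate intensity of all 5 lay below the negative-control limit.

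Within a gene, the upstream value was above the coding value in 19 of 20 pairs measured on the same array, and the exception was gpd3 on replicate 1. With channel B as the numerator throughout, it was above in 10 of the 20, since all 9 pairs of replicate 2 turn. The 5 genes with both features on 3 arrays were higher upstream on all 3, by a mean log2 difference of 2.57 ± 0.25 for pfk1, 2.00 ± 0.52 for pdc101, 1.59 ± 0.62 for adh1, 0.98 ± 0.54 for fba1 and 0.72 ± 0.70 for pyk1. These differences include coding values below the negative-control limit, which were those of all 5 genes on replicate 3 and of pfk1 and adh1 also on replicate 1. For 632 other genes measured in the same way the median difference was 0.64, and 49.4% of them were higher upstream on all 3 arrays. Of these other genes, 46.8% had a difference at least as large as that of pyk1.

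The features of the gene across each upstream region were read next. Their positions are not known, so how far the signal extended cannot be told from them. Around pdc101 the ratio was high in the features named for the gap and in the SPAC1F8.08 coding feature, but not in the pdc101 coding feature. The upstream feature of SPAC1F8.08, across the 343 bp gap, gave 2.02, 3.17 and 2.62, with a mean of 2.60 ± 0.58. The coding feature of SPAC1F8.08 gave 2.46 ± 0.43, above the pdc101 coding feature, with a mean of 0.54 ± 0.34, on every array. Both SPAC1F8.08 features had a limma adjusted p of 0.00128. Both upstream features are named for the same 343 bp gap. Their positions in it are not known, so they cannot be taken as separate observations.

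In the fba1 region, shared with the divergent gene mug124, the features of the neighbour were lower than at pdc101. The upstream feature of mug124 had a ratio of 1.19 ± 0.54 (limma adjusted p = 0.0358) and its coding feature 1.39 ± 0.67 (0.0229). The mug124 coding feature lay above that of fba1 on replicates 2 and 3 but not on replicate 1, with 0.66 against 0.76. Both upstream features are named for the same 1078 bp gap and may not be separate observations. In contrast, sad1, the divergent neighbour of pfk1 that encodes a spindle pole body protein, gave 0.68 upstream on replicate 2 only and -0.45 ± 0.58 in its coding feature. The divergent neighbour of eno101, cup1, gave 0.90 and 0.63 upstream on replicates 1 and 2 and -0.05 ± 0.50 in its coding feature, and neither coding feature was called.

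At the 6 genes with a tandem neighbour, the upstream region lies behind the 3′ end of that neighbour. The neighbour's own upstream feature is named for a different intergenic region, beyond its coding region. The features upstream of these neighbours gave 1.68 and -0.05 on replicates 1 and 2 for pgm1, 1.03 and 1.22 on replicates 2 and 3 for def1, and 0.95 and 1.64 on those arrays for sam1. For SPCC24B10.20 they were 1.42 and 1.01 on replicates 1 and 2, and for ppc89 0.30 on replicate 2. None of these 5 had a value on all 3 arrays. The coding features of pgm1, def1 and sam1, next to tdh1, gpd3 and pgk1, had means of -0.70 ± 0.74, 0.72 ± 0.56 and -1.04 ± 1.60, and none was called. The snp27 coding feature next to adh1 gave -0.76, 1.46 and -0.16, a range that includes 0, while the feature upstream of snp27 itself was called at 1.41 ± 0.37 (limma adjusted p = 0.0144). The coding feature of SPCC24B10.20, next to tpi1, had 1 value, 1.59 on replicate 2. That of ppc89, next to pyk1, gave -0.11 and 0.07 on replicates 1 and 2. A second kind of feature, named for the long intergenic regions of pfk1 and pgk1, gave 0.47 and 0.84 on replicates 1 and 2 for pfk1, below the values of the pfk1 upstream feature, and 1.60 on replicate 2 for pgk1, below 3.61. The distance of these features from the gene is not in the files.

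**Figure D4:**
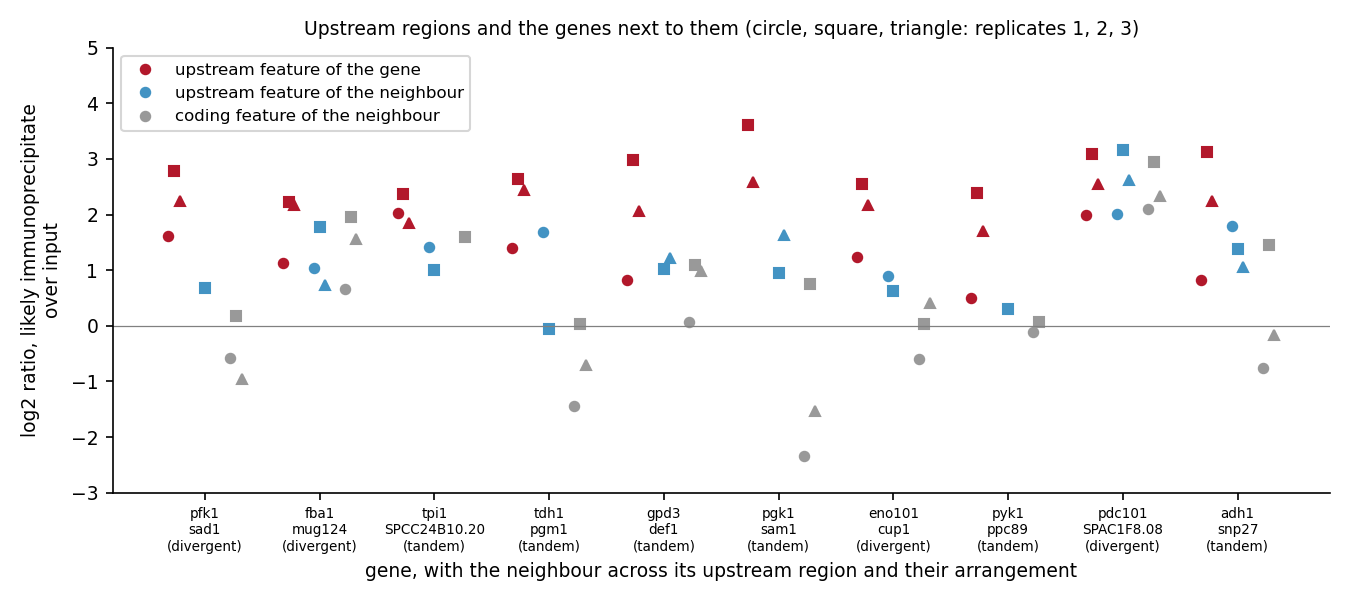
Log2 ratio of likely immunoprecipitate over input (y axis) for the upstream feature of each of the 10 genes (red), and for the upstream (blue) and coding (grey) features of the neighbouring gene across its upstream region (x axis labels, with the arrangement). Circles, squares and triangles are replicates 1, 2 and 3. At pdc101 all 3 kinds of feature lie near or above 2, and the grey points lie below the red ones on replicates 2 and 3 only. At every other gene the grey points lie below the red ones on every array with both.

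Base composition and region length moved with the ratio across the array. Of 1057 tested upstream features that could be matched to a promoter window 20.7% were called enriched. The share was 35.8% of the 162 with an AT content of 60.0% or less and 18.0% of the 895 with more. Of the 356 features with 1000 bp or more to the next gene 29.5% were called, against 16.3% of the 701 with less. Without features of the 10 genes the shares were 27.9% of 348 and 16.1% of 700. Of the 73 features with both properties 45.2% were called, and of the 65 among them that belong to none of the 10 genes 38.5% were, with a median log2 ratio of 0.58. The part of composition and length in the ratios of the 10 genes was not tested.

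The other genes of central carbon metabolism were compared with these 10 by lists of 43 genes in 4 groups. Of their 41 upstream features 11 had a ratio on all 3 arrays, and 5 of these were called enriched and 0 depleted, where 19.7% of tested intergenic features were enriched. Their median log2 ratio was 0.77, against 0.36 for all tested intergenic features. Of their 42 coding features 26 were tested, and 0 were called by limma while 5 had an unadjusted p under 0.05, with a median of -0.25 against -0.28 for all. With channel B as the numerator throughout, 0 upstream and 0 coding features of these lists were called.

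The remaining step of glycolysis between pgk1 and eno101 is that of phosphoglycerate mutase, encoded by gpm1. Its upstream feature gave 1.93, 2.51 and 1.73, a mean of 2.06 ± 0.41 (limma adjusted p = 0.00268), inside the range of the 10 genes, and it was the only one of the 8 upstream features of other glycolysis and fermentation genes with 3 arrays. All 5 with 2 arrays are given, a choice made after their values were seen. Of these, hxk1 and hxk2, the hexokinases, gave 2.07 and 2.02 and 1.68 and 2.00 on replicates 2 and 3, and adh4, a further alcohol dehydrogenase gene, gave 2.14 and 2.07 on replicates 1 and 2. In contrast, adh8, also an alcohol dehydrogenase gene, gave -0.50 and -0.36 on replicates 2 and 3, and the pyruvate decarboxylase paralog pdc201 gave 0.54 and 0.84 there. The paralogs pdc102 and pdc202 had a value on replicate 2 only, -0.77 and 0.39, where pdc101 gave 3.09, and these have no replicate check.

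The pentose phosphate pathway branches from glucose 6-phosphate, and 4 of its 5 tested upstream features were called enriched. Zwf1, glucose-6-phosphate dehydrogenase at the entry of the pathway, gave 1.45, 3.41 and 2.21, a mean of 2.35 ± 0.99 (limma adjusted p = 0.00455). Upstream of gnd1, phosphogluconate dehydrogenase, the mean was 1.60 ± 0.60 (adjusted p = 0.0121). Lower values were found upstream of gcd1, annotated as a glucose-6-phosphate dehydrogenase, at 1.33 ± 0.95 (0.0432), and of tkt1, transketolase, at 1.17 ± 0.38 (0.0305). At tkt1 the likely immunoprecipitate intensity lay above the negative-control limit on 1 array only, and at zwf1, gnd1 and gcd1 on all 3. The call at tkt1 was lost when any 1 replicate was left out, with an adjusted p of 0.0563 to 0.136, that at gcd1 without replicate 2 (0.13) or 3 (0.205), and that at gnd1 without replicate 3 (0.0517). The calls at zwf1 and gpm1 were made in each of these 3 settings.

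Of the citrate cycle 0 of 3 tested upstream features were called, and of pyruvate dehydrogenase and acetaldehyde oxidation genes 0 of 2. By the rank rule, 8 of 14 citrate cycle upstream features were listed, none of the 8 with a ratio on 3 arrays. For pentose phosphate 3 of 8 were listed, for other glycolysis and fermentation 4 of 8, and for pyruvate dehydrogenase and acetaldehyde oxidation 2 of 11. Of all intergenic features 17.0% were listed. A difference between the lists was not tested. Among tested upstream features of the 4 lists, the lowest mean was that of cit1, citrate synthase, at -0.18 ± 0.64. Next were SPAC3C7.13c, a further gene annotated as glucose-6-phosphate dehydrogenase, at 0.20 ± 0.28, and dld1, dihydrolipoamide dehydrogenase, at 0.24 ± 0.36. The rankings of upstream and coding features leave out those with fewer arrays, some of which had more extreme values. Among tested coding features the highest means were 0.80 ± 0.87 at hxk1, 0.78 ± 0.03 at atd2 and 0.68 ± 0.33 at atd3, both aldehyde dehydrogenase genes. The lowest were -1.31 ± 1.23 at SPBC21C3.15c, a further aldehyde dehydrogenase gene, -0.95 ± 1.04 at mdh1, malate dehydrogenase, and -0.83 ± 0.60 at idh1, isocitrate dehydrogenase. The coding features of atd2 and atd3 each lay above the negative-control limit in the likely immunoprecipitate channel on 1 array only.

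Replicate 2 measured nearly all of these genes and allows the lists to be set side by side on 1 array. The median upstream log2 ratio there was 2.71 for the 10 genes, 1.11 for 8 other glycolysis and fermentation genes, 1.11 for 8 pentose phosphate genes, 0.77 for 14 citrate cycle genes and -0.03 for 11 genes of pyruvate dehydrogenase and acetaldehyde oxidation. The lowest of the 10 genes, fba1 at 2.23, lay above all but 3 upstream features of the other lists, zwf1 at 3.41, gpm1 at 2.51 and gnd1 at 2.26, and above all their coding features but that of gpm1, at 2.24. These are values of 1 array whose direction differs from that of the other arrays.

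**Figure D5:**
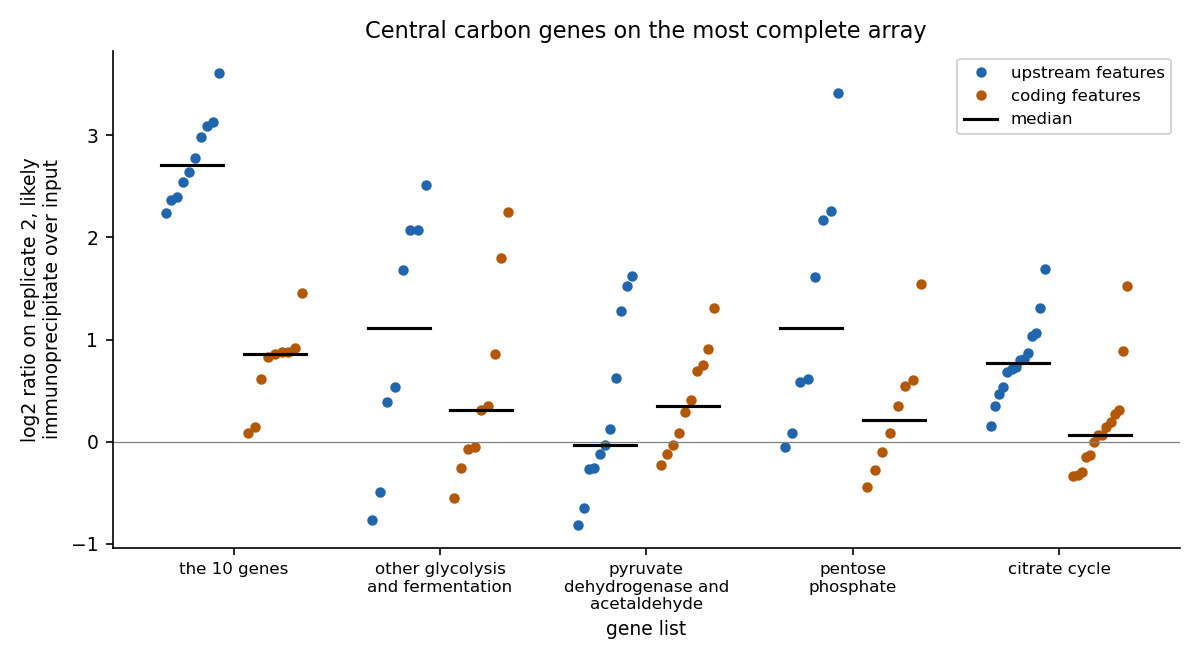
Log2 ratio of likely immunoprecipitate over input on replicate 2 (y axis) for upstream (blue) and coding (orange) features of the 10 genes and of 4 other lists of central carbon genes (x axis). Each point is 1 feature and black bars are medians. The 10 upstream features lie from 2.23 to 3.61 with a median of 2.71, and the upstream medians of the other lists lie from -0.03 to 1.11.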

How the data were processed

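Spot intensity values in the deposited per-array files came from a ScanExpress scanner and TIGR Spotfinder, per the labels' protocols. Versions, a genome build and any earlier background subtraction were not given in the sources used here. The deposited series table holds log10 values that the authors normalised to the median in GeneSpring, per the labels' protocols. Within 0.006 and after 1 offset per feature class and spot position, 95.4%, 99.5% and 93.9% of them equalled 1 channel's median intensity less background on replicates 1, 2 and 3 (channel B, A and B), so they are not ratios. The medians of their columns were 0.01, -0.04 and 0.02.

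Spots without positive intensity in both channels were left out. Log2 ratios of integrated intensities were centred on each array's median, averaged per feature, and fitted with lmFit and eBayes (limma 3.58.1, R 4.3.3), two-sided against 0, with adjustment over the 3960 features that all 3 arrays measured. The script was tested on simulated data. The labels speak of separate experiments, and precision is limited by the 3 arrays. As negative-control limit the 95th percentile of 1624 spots was used, with rejected spots as 0.

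The members and gene lists were chosen with earlier results of these data known. Named were all features of the 10 genes and of their upstream neighbours, and, of the other lists, the 3 highest and 3 lowest tested features of each kind and those that passed. Alternatives were the channel orientation, loess, normexp (offset 50), median intensity less background, centring by feature class, 2 or more arrays, omission of the dimmest 25% of input spots, each replicate left out, the deposited table, and a percentile of 90. An alternative chosen after seeing the data took members by symbol or systematic name only.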

Additional observations from a re-analysis of the deposited data

How the results depend on the processing

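Orientation decided the calls: with channel B as the numerator throughout, limma called 0 features in all (138 had an unadjusted p under 0.05), 0 upstream features of the 10 genes, 0 of the other carbon genes, and 6 features of the 10 genes were on the percentile list. The median log2 ratio of upstream features then was 0.35 and that of coding features -0.028. The means turned negative upstream of gpd3 (-0.030), pyk1 (-0.060), adh1 (-0.019) and gcd1 (-0.12). The deposited table gave 0 calls in all, 0 upstream for the 10 genes and 0 for the other carbon genes, with an upstream median of 2.83 on a single-channel scale, and 597 features had an unadjusted p under 0.05. Median intensity less background gave 93 calls in all, 4 of 8 tested upstream for the 10 genes, 1 for the other carbon genes, and a coding median of 1.12. The upstream features of gpd3, eno101, pyk1 and adh1 lost their calls there. With normexp the medians were 2.90 upstream and 0.91 coding. Loess called 1 coding feature of the 10 genes and 2 of the other carbon genes. Separate centring of the classes called 8 of 9 tested upstream features and 1 coding feature of the 10 genes, and 3 upstream features of the other genes. Use of 2 or more arrays called 9 upstream features of the other genes, and without dim input spots 4 upstream features of the 10 genes were tested and 4 called, with 2 upstream and 1 coding feature of the other genes. Without each replicate in turn the calls in all were 218 to 879, and those of the other carbon genes 3 to 6 upstream and 0 to 5 coding. Upstream features of the 10 genes then gave 7 to 10 calls and a median of 1.70 to 2.52. Members by name only gave 7 upstream calls of 7 tested. No paired analysis was possible because the series has 1 group and each array already sets both channels of 1 sample side by side. The cause of these changes was not tested.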
